A study of Tupaia belangeri with 15 samples.

Results

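Transcription factors that set and keep the identity of retinal cells were followed through the nuclei of 15 tree shrew (TS) retinas, 5 from infant, 5 from mature and 5 from senile animals. The 43 factors were chosen by name from those known to specify photoreceptors, interneurons, retinal ganglion cells (RGCs) or glia, and each was found under its plain gene name among the 83605 features of the count matrices. All retinas came from untreated Tupaia belangeri, frozen after dissection, and each was made into 1 single-nucleus library on the 10x Genomics platform. The labels give the stage but neither sex nor strain, and ages in months stand in the study's own text but not in the labels and are not repeated here. The study's methods also state that senile animals were bought from another institute than the infant and mature ones, so that senility and source cannot be told apart.

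Retinal neurons and Müller cells arise from common progenitors, and a small set of DNA-binding proteins decides which fate each postmitotic cell takes. OTX2 and CRX open the photoreceptor programme, NRL and NR2E3 hold rods apart from cones, AP-2 factors and PTF1A belong to amacrine cells (ACs) and horizontal cells (HCs), VSX1 and ISL1 to bipolar cells (BCs), and POU4F (BRN3) factors to RGCs. Many of these genes stay on for life, and subtypes of a class differ in which of them they keep.

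Libraries held 13429873 to 58734300 unique molecular identifiers (UMIs). Of 120437 barcodes, 119765 passed the study's own limits on genes and mitochondrial UMIs, and 76937 of these (64.2%) could be assigned to 1 of 9 classes from marker genes among which there was no member. PAX6, TFAP2A, CRX, PAX2 and ISL1, which the study itself used as markers, were thus kept out of the gate. The neuronal classes were BCs (24812 nuclei), ACs (19407), cones (14193), RGCs (6092), HCs (1290) and rods (902), and the others were Müller cells (8534), astrocytes (1064) and microglia (643). In every class the summed level of its own markers exceeded that in any other class, from 3.27-fold for Müller cells over astrocytes to 162-fold for microglia, a description, since nuclei were gated on these markers. UMIs were summed per retina and class, and levels are given as UMIs per 1000000 of that sum (CPM), as the mean ± SD over retinas with at least 10 nuclei (14 for rods, where Senile 1 had none, and 15 for every other class). CPM of a gene carries no scaling beyond this sum, whereas the fits scale further, and for some members they order classes the other way. Between genes CPM also depends on transcript structure and is not compared here. At most 29 barcodes were shared by any pair of libraries.

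The first question was which factor marked which class. Of the 43 members, 36 had enough counts to enter a test across all features (edgeR quasi-likelihood test with the retina as a block), and 27 of these (75.0%) were higher in a single class than in each of the other 8 classes at an adjusted p under 0.05. Among all 13533 features tested, the share with such a class was 50.2%. Those 27 were spread over 7 classes: 6 belonged to BCs, 5 to cones, 4 each to HCs and RGCs, 3 each to ACs and astrocytes, and 2 to rods. Müller cells and microglia led in none, against 5.76% and 6.38% of all features. From a list of 30 other retinal regulators, 21 were tested and 17 had a leading class, among them IKZF1 in microglia, ESRRB in rods, and LHX4 and ST18 in BCs.

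**Figure D1:**
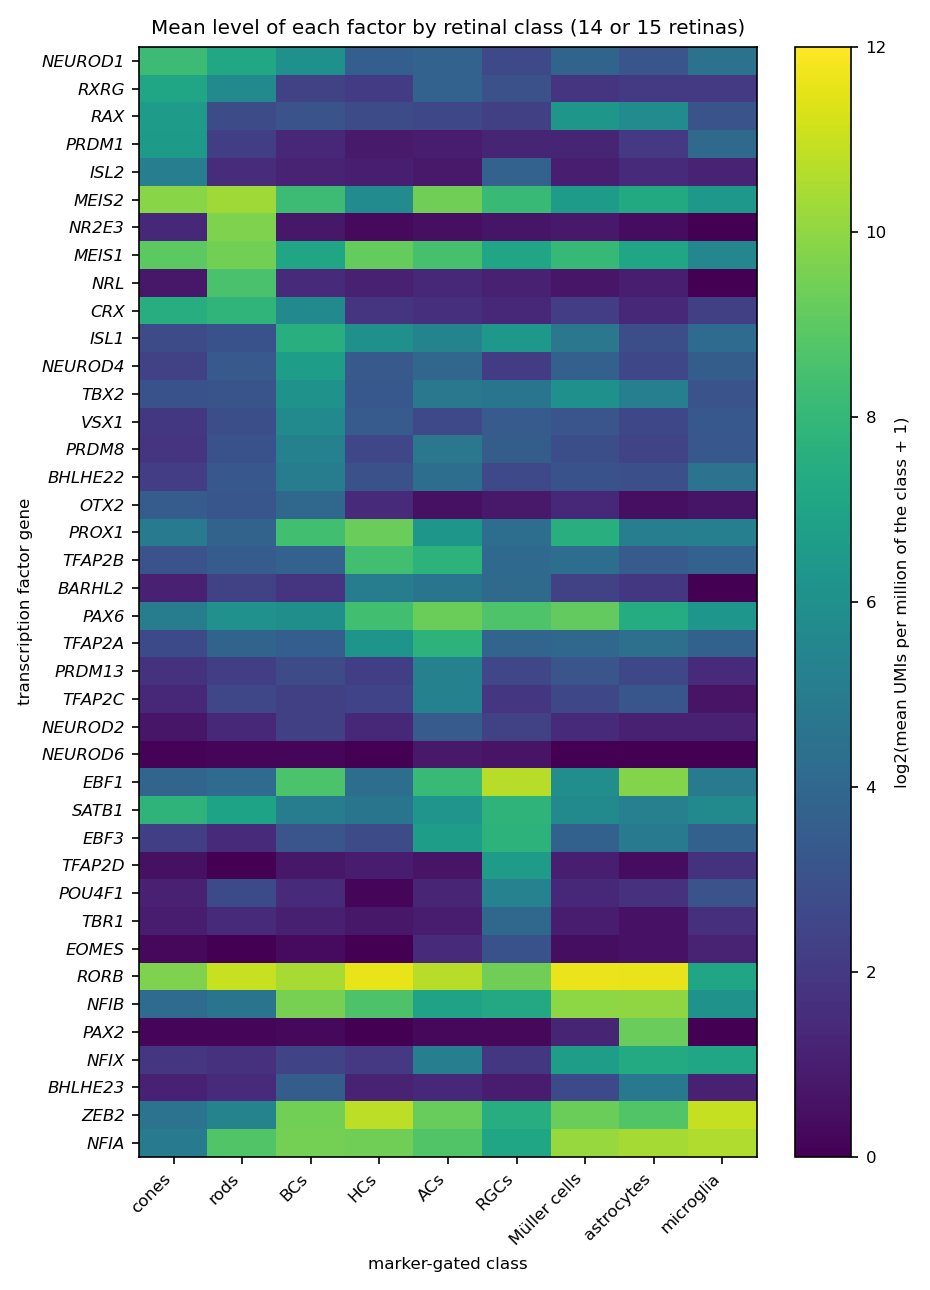
Mean level of the 40 factors with at least 100 UMIs in gated nuclei (rows) in the 9 marker-gated classes (columns), as log2(mean CPM + 1) over 14 or 15 retinas. Colours are to be compared along a row; NRL, NR2E3, PAX2 and TFAP2D are bright in 1 column each, whereas RORB, MEIS2, PAX6 and ZEB2 are bright in several.

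Rods were set apart by 2 members, where 2.53% of all features led in this class. NR2E3, a nuclear receptor that silences cone genes in rods, ranged from 255 to 1801 CPM in rods (median 644.5) and stayed at or below 4.96 CPM in each other class and retina. Its mean was 817 ± 527 CPM (n = 14), a log2 difference of 8.29 (SE 0.15) from cones, the nearest class (adjusted p = 1.11e-53). NRL, the leucine zipper factor without which rod precursors become cones, ranged from 164.8 to 678.9 CPM in rods and averaged 371 ± 132 CPM, against 1.62 ± 0.678 CPM in ACs, the nearest class in the fit (log2 difference 7.50, SE 0.17, adjusted p = 6.68e-39). No rod sample overlapped a sample of any other class for either gene. The level of NR2E3 in rods differed with the version of the counting software, Cell Ranger: it was 255 to 394.5 CPM in the 6 retinas whose labels give version 5.0.1 and 528 to 1801 CPM in the 8 with version 7.0.1. Libraries of the first group held 13429873 to 30034007 UMIs and those of the second 18440752 to 58734300, and software, depth and whatever else was shared within a group cannot be told apart. For NRL the ranges of both groups overlapped.

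Cones led in 5 members (12.4% of all features led there). PRDM1 (BLIMP1), which holds photoreceptor precursors back from the bipolar fate, was at 91.6 ± 16.7 CPM in cones (range 62.8 to 122.5) and at 3.63 ± 7.50 CPM in rods, and its log2 difference from microglia, the nearest class, was 3.0 (SE 0.28, adjusted p = 7.55e-19). RXRG, a retinoid receptor known from cones, was at 131 ± 27.9 CPM in cones against 51.1 ± 25.9 CPM in rods (log2 difference 1.74, SE 0.17, adjusted p = 8.68e-18). NEUROD1, a basic helix-loop-helix factor needed for photoreceptor survival, reached 300 ± 55.3 CPM in cones and 140 ± 55.6 CPM in rods (1.55, SE 0.14, adjusted p = 1.37e-19). Cones thus stood above rods for both genes, although the ranges of the single retinas overlapped.

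The LIM-homeobox gene ISL2 was the fourth member with its highest level in cones, at 33.6 ± 13.5 CPM (range 17.6 to 68.3), and it was higher there than in RGCs (12.5 ± 4.05 CPM; log2 difference 1.53, SE 0.14, adjusted p = 7.94e-14), with some overlap of the retinas. RAX, the retina and anterior neural fold homeobox gene, divided between cones and glia: it measured 98.9 ± 23.2 CPM in cones, 79.4 ± 22.1 CPM in Müller cells and 54.9 ± 24.3 CPM in astrocytes, with no more than 7.54 CPM on average in any other class. Its lead in cones over Müller cells was small (log2 difference 0.42, SE 0.12, adjusted p = 0.00132). CRX, which activates opsin and phototransduction genes in all photoreceptors, was at 178 ± 44.1 CPM in cones and 227 ± 62.0 CPM in rods and at 51.2 ± 11.7 CPM in BCs. The unscaled mean was thus higher in rods, whereas the fitted difference, after scaling, had the opposite sign and did not pass the test (log2 difference of cones from rods 0.07, SE 0.12, adjusted p = 0.7).

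**Figure D2:**
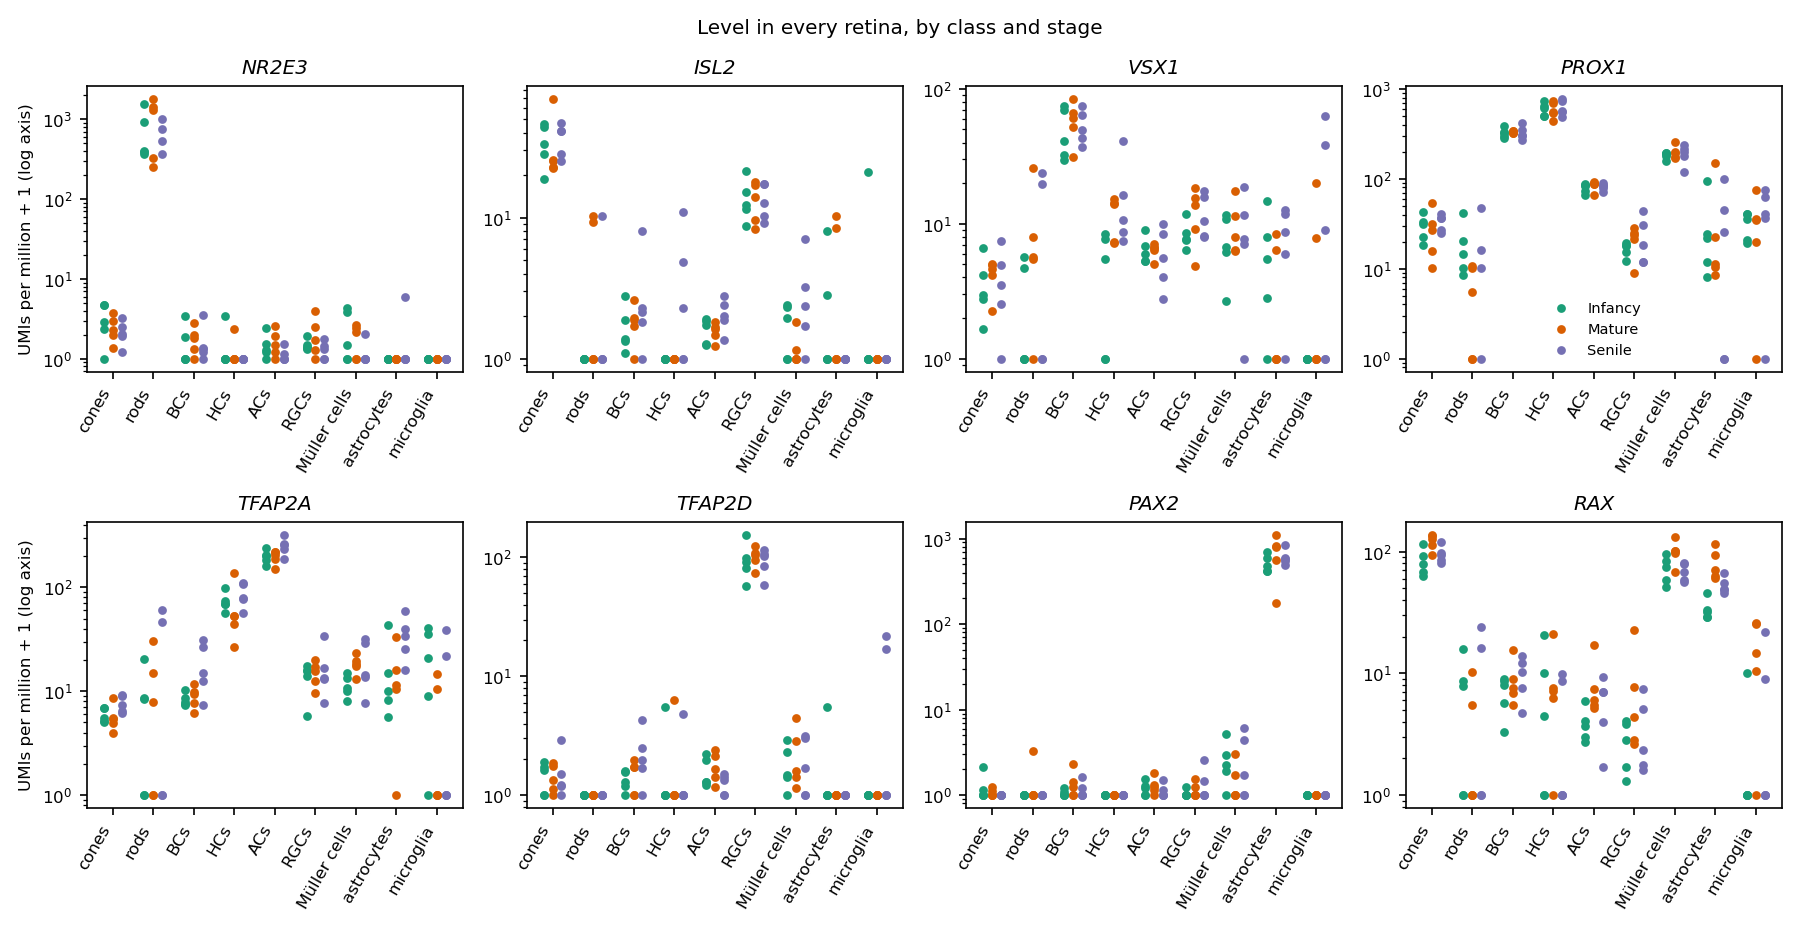
Level of 8 factors in every retina, by class and stage, as CPM + 1 on a log axis. Each dot is 1 retina (green infant, orange mature, purple senile); rods for NR2E3, astrocytes for PAX2 and RGCs for TFAP2D lie above every dot of the other classes, while RAX is high in cones, Müller cells and astrocytes alike.

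BCs led in 6 members, and 5.36% of all features led there. NEUROD4 was at 102 ± 32.7 CPM in BCs (range 41.8 to 180.3) and at 14.3 ± 4.71 CPM in ACs (log2 difference 2.89, SE 0.12, adjusted p = 1.17e-21), and no BC sample lay as low as any AC sample. VSX1, a homeobox gene of bipolar cells, was at 53.0 ± 17.8 CPM against 9.89 ± 4.28 CPM in RGCs (2.56, SE 0.15, adjusted p = 4.11e-14). ISL1 was at 189 ± 49.7 CPM in BCs and also present in RGCs (83.6 ± 23.4 CPM), HCs (65.0 ± 27.3 CPM) and ACs (40.1 ± 11.5 CPM), with a log2 difference of 1.27 (SE 0.12, adjusted p = 1.16e-13) between BCs and RGCs. BHLHE22 was at 32.7 ± 7.32 CPM against 19.3 ± 6.03 CPM in ACs (0.88, SE 0.12, adjusted p = 1.11e-05), and PRDM8 at 37.9 ± 8.47 CPM against 25.9 ± 4.07 CPM in ACs (0.63, SE 0.10, adjusted p = 3.63e-08). OTX2 counts were low throughout, with 15.3 ± 5.88 CPM in BCs, 10.1 ± 4.18 CPM in cones and 8.20 ± 8.46 CPM in rods. Its lead over cones was 0.64 (SE 0.14, adjusted p = 0.00285), and with upper-quartile scaling it was again 0.64 but missed the threshold (adjusted p = 0.0504).

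HCs led in 4 members, where the share of all features was 5.24%. PROX1, a homeobox gene that drives horizontal cell genesis, was at 602 ± 106 CPM in HCs (442 to 770.1), 327 ± 36.9 CPM in BCs and 190 ± 32.5 CPM in Müller cells, and HCs exceeded BCs by a log2 difference of 0.88 (SE 0.13, adjusted p = 1.26e-09) without overlap of the retinas. TFAP2B was at 328 ± 57.6 CPM in HCs and 214 ± 24.3 CPM in ACs (0.67, SE 0.10, adjusted p = 1.02e-08) and averaged at most 18.9 CPM elsewhere. ZEB2 passed the test for HCs (1806 ± 274 CPM), yet its unscaled level was no lower in microglia (1948 ± 480 CPM). The fitted lead over microglia (0.77, SE 0.10, adjusted p = 2.2e-11) therefore has the opposite direction to the unscaled means. That lead was found after scaling by the trimmed mean of M-values, and with upper-quartile scaling it was 0.32 and also passed the test. BARHL2 led by 0.50 (SE 0.18, adjusted p = 0.0167) with 151 UMIs in all HCs together, and its call was lost without Mature 3 (0.41), without Mature 5 (0.41), without Senile 1 (0.41), under a stricter gate (0.34) and without a low-count filter (0.13).

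ACs led in 3 members (3.38% of all features): TFAP2A, TFAP2C and PRDM13. TFAP2A was at 214 ± 42.5 CPM in ACs (range 148.9 to 314.3) against 73.1 ± 29.2 CPM in HCs (log2 difference 1.60, SE 0.14, adjusted p = 6.94e-21), and the retinas of both classes did not overlap. TFAP2C was at 38.1 ± 17.2 CPM in ACs against at most 8.40 ± 12.4 CPM on average in another class, astrocytes (2.52, SE 0.31, adjusted p = 2.82e-12). PRDM13, which acts downstream of PTF1A in amacrine fate, was at 38.2 ± 13 CPM against 7.83 ± 4.45 CPM in Müller cells (2.32, SE 0.17, adjusted p = 9.87e-13). The AP-2 genes therefore had 3 different patterns, with TFAP2A and TFAP2C highest in ACs, TFAP2B shared between HCs and ACs, and TFAP2D, described next, in RGCs.

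RGCs led in 4 members, against 5.18% of all features. TFAP2D was at 96.3 ± 24.8 CPM in RGCs (57.0 to 151.9) and averaged at most 2.44 ± 6.49 CPM in another class, with a log2 difference of 5.58 from microglia (SE 0.42, adjusted p = 1.76e-23). POU4F1 (BRN3A) was at 39.5 ± 6.84 CPM against 5.42 ± 8.04 CPM in rods (3.32, SE 0.36, adjusted p = 2.09e-11). EBF1 was at 1687 ± 294 CPM in RGCs and 877 ± 499 CPM in astrocytes (1.23, SE 0.18, adjusted p = 2.88e-09), and EBF3 at 216 ± 33.2 CPM against 103 ± 31.4 CPM in ACs (1.09, SE 0.11, adjusted p = 8.27e-16). Both belong to the early B-cell factor family. RGC samples of TFAP2D and EBF3 lay above all samples of the next class, whereas those of EBF1 and POU4F1 overlapped with them. SATB1, which organises chromatin and shapes dendrites of a direction-selective RGC type, was at 221 ± 29.5 CPM in cones and 223 ± 39.0 CPM in RGCs, and no difference was detectable (0.10, SE 0.08, adjusted p = 0.282).

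The other POU4F genes gave few or no counts. POU4F2 (BRN3B), used widely as a pan-RGC marker, had 0 UMIs among 445857418 in kept nuclei, although its feature is listed, and a count of 0 allows at most 0.0808 CPM of the summed RGC counts. POU4F3 had 36 UMIs in all nuclei, NEUROD6 had 195 and PTF1A, which is active in embryonic progenitors, had 1. EOMES (TBR2) and TBR1, T-box genes of separate RGC groups, missed the count filter and are given as levels with no test. They were at 7.02 ± 2.55 and 15.8 ± 5.83 CPM in RGCs, with the next highest means at 1.66 CPM in ACs for EOMES and 2.09 CPM in microglia for TBR1.

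Astrocytes led in 3 members (3.97% of all features). PAX2, a paired-box gene of the optic stalk and of astrocytes that enter the retina from the optic nerve, was at 603 ± 218 CPM in astrocytes (176.4 to 1086) and at 1.34 ± 1.66 CPM in Müller cells (log2 difference 8.28, SE 0.18, adjusted p = 5.26e-44). Every astrocyte sample lay above every sample of the other classes for PAX2. BHLHE23 was at 27.6 ± 25.1 CPM on 96 UMIs, above 10.6 ± 3.21 CPM in BCs (1.35, SE 0.27, adjusted p = 3.72e-06), and its lowest astrocyte sample was at 0. NFIX exceeded Müller cells by 0.50 (SE 0.14, adjusted p = 0.00164), with 161 ± 38.3 CPM in astrocytes, 132 ± 52.9 CPM in microglia and 102 ± 24.5 CPM in Müller cells.

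The 9 tested members without a single leading class were CRX, RORB, TBX2, PAX6, SATB1, MEIS1, MEIS2, NFIA and NFIB. PAX6, a master regulator of eye formation, was highest in ACs (623 ± 82.4 CPM) and Müller cells (551 ± 104 CPM), whose difference did not pass the test (log2 difference 0.16, SE 0.12, adjusted p = 0.221), followed by RGCs (407 ± 45.9 CPM) and HCs (334 ± 56.2 CPM). NFIA and NFIB are nuclear factor I genes that act in late progenitors and glia. NFIB was high in both macroglial classes, at 980 ± 134 CPM in Müller cells and 1016 ± 182 CPM in astrocytes, and was at 17.5 ± 8.04 CPM in cones. NFIA was at 1527 ± 370 CPM in microglia, 1349 ± 220 CPM in astrocytes and 1136 ± 183 CPM in Müller cells. MEIS2 was high in rods, cones and ACs (1250 ± 308, 934 ± 131 and 685 ± 146 CPM) and low in HCs (53.4 ± 37.2 CPM), whereas its relative MEIS1 was high in HCs too (572 ± 86.9 CPM, beside 691 ± 137 CPM in rods). After scaling, the order of these unscaled means was not kept. The fits put NFIA highest in astrocytes, MEIS2 in cones (0.07 over rods, SE 0.16, adjusted p = 0.767) and MEIS1 in HCs (0.13 over rods, SE 0.11, adjusted p = 0.443). TBX2 was at 69.8 ± 15.4 CPM in BCs and 64.2 ± 16.5 CPM in Müller cells (0.19, SE 0.10, adjusted p = 0.0807), and it passed for BCs without Infancy 1 (0.27), without Infancy 3 (0.22), without Senile 1 (0.24) and without a low-count filter (0.41). RORB was found in all classes, from 136.5 ± 103 CPM in microglia to 3230 ± 864 CPM in Müller cells.

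The next question was how members differed between subtypes of a class, gated again without any member and compared within the same retinas. ON BCs (8913 nuclei with a UMI of TRPM1 or GRM6, genes of their glutamate response, and little GRIK1) were set against OFF BCs (8676 nuclei rich in the kainate receptor gene GRIK1). Of 23 members tested, 5 were higher in ON BCs, beside 21.0% of all features, and 11 were lower, beside 23.3%. ISL1 was at 248 to 561 CPM in ON BCs (median 424) and 13.01 to 109.6 CPM in OFF BCs (median 44.98), with no overlap (log2 difference 3.02, SE 0.13, adjusted p = 1.22e-16). BHLHE23, a repressor needed by rod bipolar cells, was at 14.7 to 42.9 CPM against 0 to 6.43 CPM (2.85, SE 0.20, adjusted p = 3.37e-12). PRDM8 (2.00, SE 0.13), VSX1 (1.43, SE 0.12) and PROX1 (1.32, SE 0.06) were also higher in ON BCs of all 15 retinas, with adjusted p of 3.46e-13, 1.29e-10 and 7.9e-17.

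MEIS2 had the largest difference in the other direction, at 20.7 to 128.6 CPM in ON BCs and 501 to 957 CPM in OFF BCs (log2 difference -3.96, SE 0.15, adjusted p = 5.25e-18). No ON sample came near an OFF sample for this gene. EBF1 (-1.26, SE 0.19, adjusted p = 4.14e-06) and EBF3 (-1.05, SE 0.20, adjusted p = 8.43e-05) were lower in ON BCs of 13 of 15 retinas, and their ranges overlapped. NFIB (-0.56, SE 0.06, adjusted p = 7.81e-09) and SATB1 (-0.52, SE 0.10, adjusted p = 0.00015) were lower in 15 and 12 retinas. The photoreceptor and bipolar factors OTX2, CRX, NEUROD1 and NEUROD4 did not pass the test between both kinds of BCs, with log2 differences of -0.10 to 0.09 and SEs of 0.05 to 0.13. Of 11 other regulators tested, 7 were higher and 1 was lower in ON BCs, and ST18 (3.09, SE 0.13) and LMO4 (2.19, SE 0.10) were among the higher ones, with adjusted p of 1.33e-16 and 5.85e-16.

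**Figure D3:**
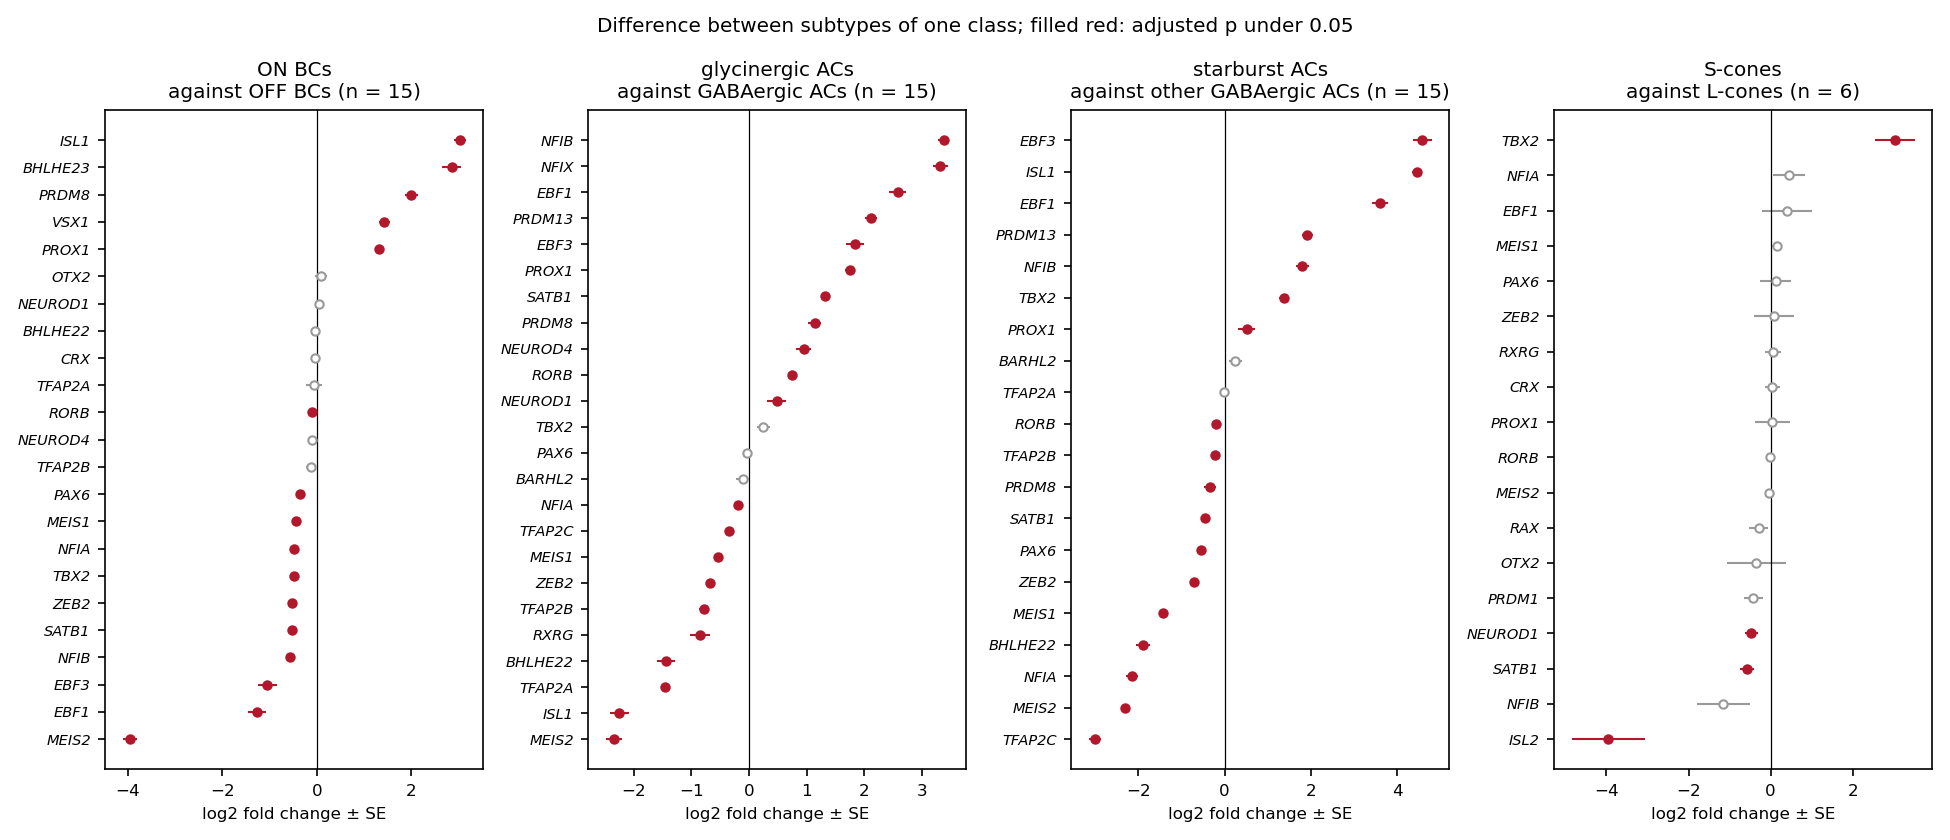
Log2 fold change ± SE of each tested factor between subtypes of a class, from the within-retina fits; filled red points have an adjusted p under 0.05, and n is the number of retinas. ISL1 leads in ON BCs and, among GABAergic ACs, stands with EBF3 at the top of the starburst panel, while MEIS2 is lowest or next to lowest in the first 3 panels.

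ACs release glycine or GABA, and many factors differed in level between the glycinergic ACs (3958 nuclei) and GABAergic ACs. Of 24 members tested, 11 were higher in glycinergic ACs, beside 20.5% of all features, and 10 were lower, beside 21.2%. NFIB was at 228 to 631 CPM in glycinergic and 16.1 to 65.8 CPM in GABAergic ACs (log2 difference 3.38, SE 0.09, adjusted p = 2.86e-21), and NFIX at 77.6 to 162.9 against 0 to 20.8 CPM (3.32, SE 0.13, adjusted p = 3.32e-18). NFIA, of the same family, was slightly lower in glycinergic ACs (-0.19, SE 0.07, adjusted p = 0.0322). EBF1 (2.58, SE 0.15, adjusted p = 5.89e-14), PRDM13 (2.12, SE 0.10, adjusted p = 4.05e-16) and EBF3 (1.84, SE 0.15, adjusted p = 2.56e-11) completed the 5 largest, each higher in glycinergic ACs of 15 of 15 retinas.

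GABAergic ACs had more MEIS2, at 579 to 1087 CPM against 79.4 to 420 CPM in glycinergic ACs (log2 difference -2.35, SE 0.14, adjusted p = 1.05e-13). ISL1 (-2.25, SE 0.17, adjusted p = 9.22e-12), TFAP2A (-1.45, SE 0.07, adjusted p = 2.35e-15) and BHLHE22 (-1.44, SE 0.15, adjusted p = 5.19e-09) were likewise lower in glycinergic ACs of all 15 retinas, and RXRG (-0.85, SE 0.18, adjusted p = 0.000368) in 12. PAX6 did not pass the test (-0.04, SE 0.05, adjusted p = 0.596). The GABAergic ACs include the starburst ACs described next, and for ISL1 these held most of the counts: its mean was 13.7 CPM in glycinergic, 195.6 CPM in starburst and 9.03 CPM in other GABAergic ACs. When starburst ACs were left out, an alternative chosen after seeing the data, ISL1 missed the count filter, 11 of 23 members were higher in glycinergic ACs (22.6% of all features) and 10 were lower (21.8%). The differences were then larger for NFIX (4.88, SE 0.16), EBF3 (4.65, SE 0.16), EBF1 (4.52, SE 0.18), NFIB (4.09, SE 0.12), PRDM13 (2.93, SE 0.10) and NEUROD4 (2.44, SE 0.15, from 0.95 with starburst ACs included). PAX6 passed the test (-0.17, SE 0.05, adjusted p = 0.00576), as did TBX2 (0.77, SE 0.13, adjusted p = 9.38e-06). NEUROD1 no longer passed (0.32, SE 0.17, adjusted p = 0.136). Of 14 other regulators tested, 7 were higher and 3 lower in glycinergic ACs. The subtypes differed in depth, with a median of 2420 UMIs per glycinergic nucleus and 4362 per other GABAergic nucleus, and its part in these differences was not tested.

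Starburst ACs (2262 nuclei), the cholinergic cells that compute motion direction, were compared with the other GABAergic ACs (5305 nuclei). Of 20 members tested, 7 were higher in starburst ACs, beside 20.9% of all features, and 11 were lower, beside 22.4%. ISL1 was at 105 to 321 CPM in starburst and 3.72 to 22.04 CPM in other GABAergic ACs (log2 difference 4.46, SE 0.12, adjusted p = 6.04e-21). EBF3 was at 18.3 to 414 CPM against 0 to 18.0 CPM (4.59, SE 0.22, adjusted p = 1.02e-15), and EBF1 at 91.7 to 715 CPM against 11.4 to 72.5 CPM (3.61, SE 0.18, adjusted p = 2.06e-15). None of these 3 overlapped between the 2 cell groups, but for EBF3 the nearest values were 18.33 and 18.01 CPM. The smallest starburst sum of a retina held 109112 UMIs, so that this gap rests on few counts. For all features the share without overlap was not computed. PRDM13 (1.92, SE 0.13, adjusted p = 1.12e-12) and NFIB (1.80, SE 0.15, adjusted p = 5.8e-11) were higher in starburst ACs of 14 of 15 retinas.

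Starburst ACs had almost no TFAP2C, at 0 to 13.2 CPM, where other GABAergic ACs had 26.5 to 113.2 CPM (log2 difference -3.01, SE 0.15, adjusted p = 3.38e-15). MEIS2 (-2.31, SE 0.09, adjusted p = 1.35e-17), NFIA (-2.15, SE 0.15, adjusted p = 2.09e-12), BHLHE22 (-1.90, SE 0.16, adjusted p = 5.46e-11) and MEIS1 (-1.42, SE 0.07, adjusted p = 3.93e-15) were also lower in every retina. TFAP2A, highest in ACs among the classes, did not pass the test (-0.01, SE 0.06, adjusted p = 0.984). Of 12 other regulators tested, 2 were higher and 6 lower in starburst ACs. SATB1 (-0.45, SE 0.11), PRDM8 (-0.35, SE 0.14) and RORB (-0.20, SE 0.04) were lower in starburst ACs, with adjusted p of 0.00125, 0.0401 and 0.000588. This comparison shares GABAergic nuclei with the one before, and starburst and glycinergic ACs were not tested against each other. A further group, ACs with at least 2 UMIs of the vesicular glutamate transporter gene SLC17A8 (1315 nuclei), had 55.8 ± 33.5 CPM of NEUROD2, against 5.98 ± 3.18 CPM in ACs without a UMI of that gene, and 190.7 ± 94.9 against 721 ± 145 CPM of MEIS2; no test was run on this split.

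S-cones and L-cones, which carry short- and long-wavelength opsin, could be compared in the 6 retinas with at least 10 S-cones (93 S-cone and 5545 L-cone nuclei). Of 18 members tested, 1 was higher in S-cones, beside 2.80% of all features, and 3 were lower, beside 4.83%. TBX2, a T-box gene linked to the short-wavelength cone fate, had 24 UMIs in S-cones and 131 in L-cones, and its level was 27.2 to 62.5 CPM in S-cones and 3.25 to 6.58 CPM in L-cones. That is a ratio of 9.62 (exact 95% interval of the counts 5.95 to 14.9, covering counting error only) and a log2 difference of 3.02 (SE 0.49, adjusted p = 3.16e-08), and S-cones were higher in 6 of 6 retinas. In all cones together TBX2 was at 7.15 ± 2.43 CPM.

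ISL2 showed the opposite: S-cones of 5 of the 6 retinas had 0 UMIs and the sixth had 1, against 763 UMIs in L-cones of the same retinas (18.5 to 47.6 CPM). The ratio was 0.0688 (exact interval 0.00174 to 0.385) and the log2 difference -3.95 (SE 0.90, adjusted p = 0.000318). SATB1 (-0.58, SE 0.17, adjusted p = 0.0116) and NEUROD1 (-0.47, SE 0.16, adjusted p = 0.0402) were lower in S-cones of 6 of 6 retinas, but DESeq2, with log2 differences of -0.57 and -0.39, called neither (adjusted p = 0.245 and 0.383). Both lost their call without Senile 1 and without Senile 3, and SATB1 also without Mature 1 and NEUROD1 without Infancy 4 (log2 differences of -0.54 to -0.49 for SATB1 and -0.44 to -0.40 for NEUROD1). A sign test over 6 retinas gives p = 0.0312 for each of these 4 genes (exact, 2-sided), the smallest it allows. This only restates that all 6 retinas lay on 1 side and adds no support. NFIB was also lower in S-cones of 6 of 6 retinas but was not called (-1.15, SE 0.65, adjusted p = 0.428). CRX, RXRG, RORB, MEIS2 and PROX1 had log2 differences of -0.04 to 0.05 with SEs of 0.11 to 0.43 and did not pass the test. Of 10 other regulators tested, 1 was higher and 3 were lower in S-cones. THRB, the thyroid hormone receptor gene required for long-wavelength cones, was lower in S-cones by a log2 difference of -4.26 (SE 0.20, adjusted p = 7.39e-99). In this fit 1 dispersion trend was used for all features, so that its adjusted p does not measure the spread of a single gene between the 6 retinas. The median difference over all features was -0.12.

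Within RGCs, members were found in different fractions of the nuclei. EBF1 had at least 1 UMI in 90.25% of 6092 RGC nuclei (exact 95% interval 89.48 to 90.98%), SATB1 in 56.45%, EBF3 in 50.7% and ISL1 in 31.7%. TFAP2D was found in 21.98% (20.95 to 23.04%) and POU4F1 in 19.3% (18.3 to 20.3%), and ISL2, TBR1 and EOMES in 6.83%, 5.93% and 3.09%. These intervals cover counting error only, since nuclei were pooled over retinas. Between retinas the share ran from 61.5 to 97.7% for EBF1, from 14.6 to 39.0% for TFAP2D and from 15.0 to 32.5% for POU4F1. A retina held 41 to 772 RGC nuclei, and shares from the smallest ones are the least exact (41 in Mature 5, 77 in Infancy 5 and 83 in Mature 4). RNA set free from other cells can give a UMI in any nucleus, and in cones the shares were 3.97% for EBF1, 0.197% for TFAP2D, 0.479% for POU4F1, 0.458% for TBR1 and 0.0846% for EOMES (median 3196 UMIs per cone and 5131 per RGC). In BCs the share was 7.58% for SATB1 and 0.230% for ISL2. The shares in RGCs lay above these for every factor, RGCs were also deeper, and nuclei with a UMI of a factor had medians of 5366 to 6737 UMIs.

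**Figure D4:**
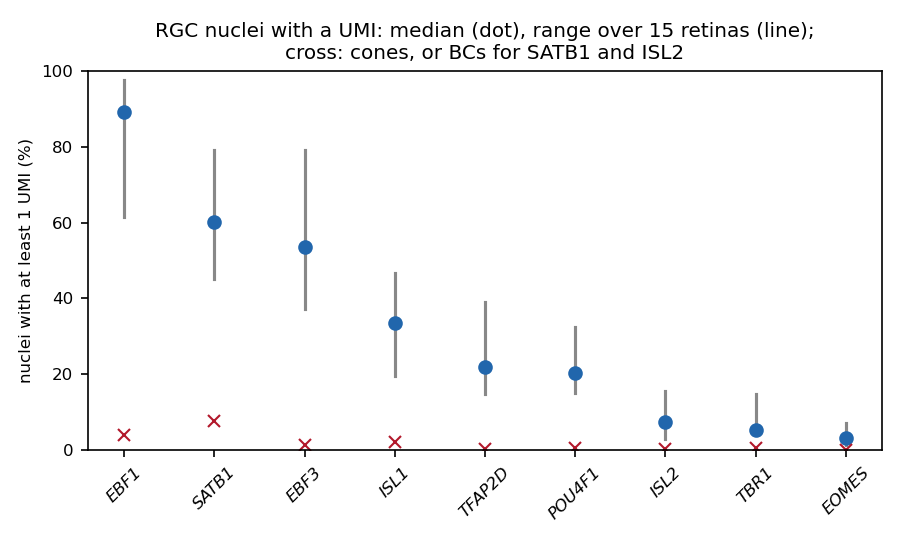
Percentage of RGC nuclei with at least 1 UMI of each factor; the dot is the median and the line the range over 15 retinas, and the cross is the percentage in cones (BCs for SATB1 and ISL2). EBF1 is found in most RGCs of every retina, and EOMES, TBR1 and ISL2 in a small share.

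EOMES, which marks intrinsically photosensitive RGCs in mice, was detected in 188 nuclei, of which 1 also had ISL2 and 3 had TBR1. POU4F1 was found in 14 of them (7.45%, against 19.3% of all RGC nuclei) and TFAP2D in 28 (14.9%, against 21.98%). TFAP2D shared 321 nuclei with POU4F1, which is 24.0% of the TFAP2D nuclei and 27.3% of the POU4F1 nuclei, and 34.1% of the TBR1 nuclei had TFAP2D. ISL1 was in 48.2% of TBR1 nuclei and 42.0% of EOMES nuclei, against 31.7% of all RGC nuclei. These overlaps are descriptions of sparse counts from nuclei of shared retinas, and no test was run on them.

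HCs were split by MEGF11, the gene the study uses for H1 cells and a marker of the gate. ISL1 was at 14.3 ± 15.7 CPM in the 693 HCs with at least 2 MEGF11 UMIs and at 168 ± 85.6 CPM in the 419 HCs with none, where it was found in 37.0% of nuclei against 3.90%. Means and SDs of this split cover 15 retinas with MEGF11 and 13 without. ZEB2 (2154 ± 366 against 1243 ± 299 CPM), TFAP2A (86.7 ± 38.8 against 41.9 ± 40.9 CPM) and BARHL2 (42.3 ± 17.7 against 16.4 ± 20.6 CPM) were higher with MEGF11, while PROX1 was at 636 ± 103 against 532 ± 167 CPM and MEIS1 at 600 ± 97.0 against 540 ± 132 CPM. The median depth was 2905 and 2652 UMIs, and these values carry no test.

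The last question was whether these factors changed from infancy to senility. In 172 pairs of a member and a class (39 members), no member passed an adjusted p of 0.05 in edgeR in any of the 3 stage comparisons, fitted with the Cell Ranger version as a covariate, where 1.26% of all tested features passed between senile and infant retinas, 0.879% between mature and infant retinas and 0.00607% between senile and mature retinas. At an unadjusted p under 0.05 the numbers were 21, 9 and 14 pairs, or 12.2%, 5.23% and 8.14%, where all features gave 8.95%, 11.1% and 8.92%. DESeq2 called 2, 1 and 0 pairs, beside 1.98%, 1.98% and 0.346% of all features tested. For 26 of the 27 class-leading members the change could be measured in the class where they led: the median log2 change was -0.05 from infancy to senility, 0.06 from infancy to maturity and -0.11 from maturity to senility, with a median SE of 0.18 to 0.19, and 24, 26 and 24 of the 26 lay within 0.5 of 0. Over all features of a class the median change was between -0.04 and 0.03 in each comparison. The share of all features within 0.5 was not computed, so the count says nothing particular of these members.

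**Figure D5:**
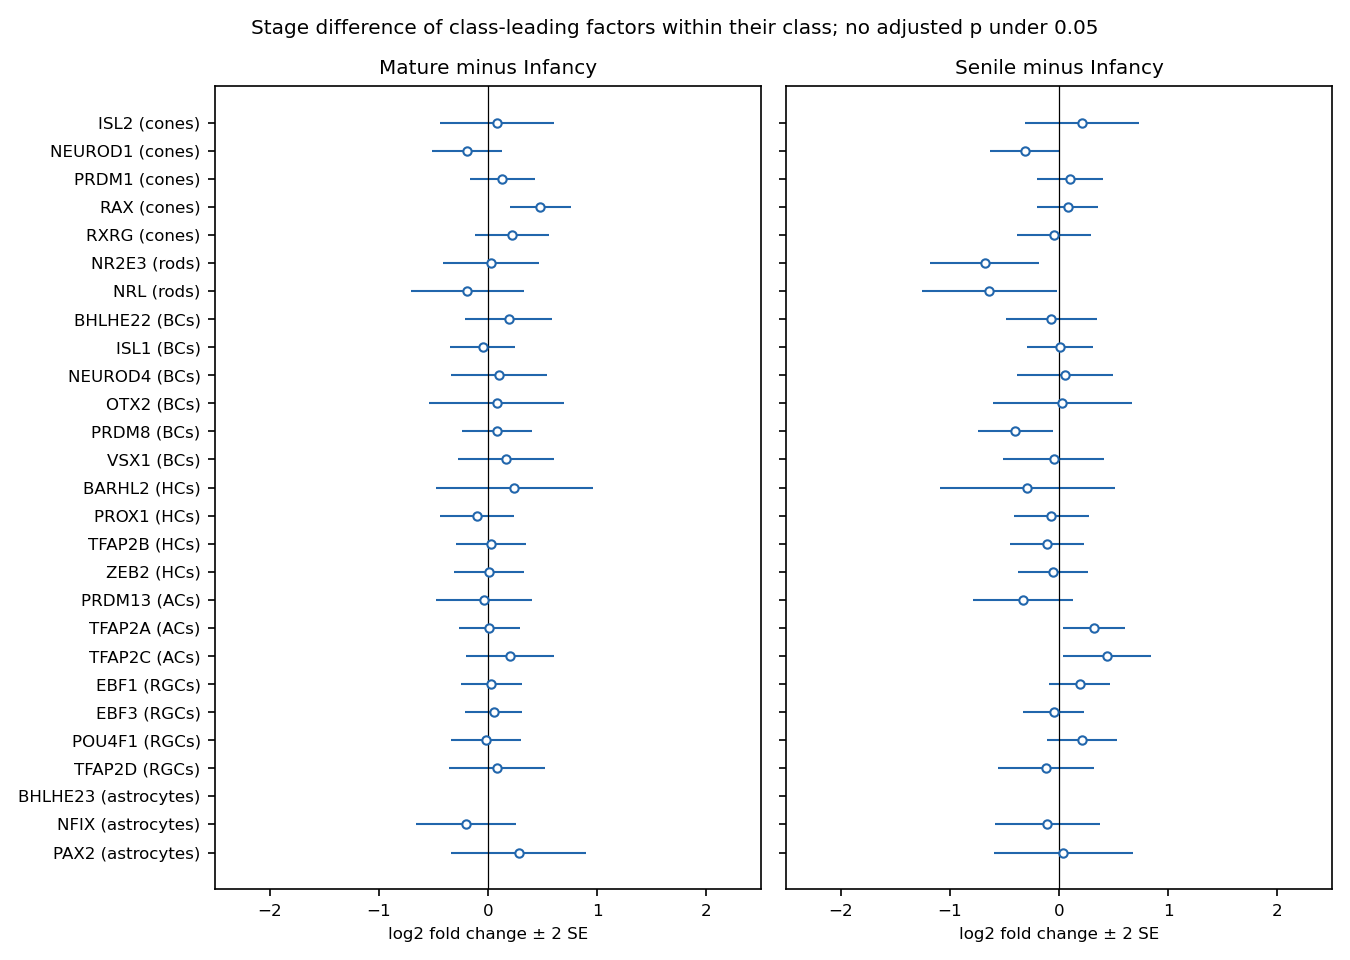
Log2 fold change ± 2 SE of the class-leading factors in their class, mature minus infant retinas (left) and senile minus infant retinas (right). No point has an adjusted p under 0.05; NR2E3 and NRL in rods lie lowest in the right panel, and BHLHE23 in astrocytes has no point because it missed the count filter.

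The pairs described next were chosen because some alternative setting called them, with NRL in rods added beside NR2E3. They are not simply those nearest to the threshold. PAX6 in rods was at 22.8, 27.2, 38.8, 33.3 and 27.7 CPM in infant retinas, at 57.6, 87.3, 39.3, 57.9 and 88.4 CPM in mature retinas and at 167.8, 137.7, 59.8 and 74.3 CPM in 4 senile retinas, on 2 to 19 UMIs each. Senile and infant values did not overlap, and the log2 change was 1.75 (SE 0.45, adjusted p = 0.0529 in edgeR and 0.0144 in DESeq2). AC markers in the same rods summed to 0.408 to 1.55 per 10000 UMIs in infant (median 1.22) and 0.897 to 1.83 in senile retinas (median 1.08). RGC markers summed to 0.300 to 2.11 (median 1.77) and 1.22 to 3.59 (median 2.80), and pigment epithelium markers to 2.33 to 4.76 and 4.58 to 5.38. The medians of Müller cell markers were 1.69 and 2.45 and those of cone markers 3.64 and 4.69, both with overlap of the retinas. Other lists went down. HC markers summed to 1.18 to 2.18 in infant and 0 to 1.07 in senile retinas, without overlap, and the medians of BC markers were 4.22 and 2.18. The part of these lists in the change was not tested.

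EBF1 in astrocytes was at 295, 388, 702, 618 and 386 CPM in infant retinas, at 1069, 826, 683, 214 and 944 CPM in mature retinas and at 1084, 1507, 1197, 2070 and 1175 CPM in senile retinas. All senile values lay above all infant values, with a log2 change of 1.37 (SE 0.33, adjusted p = 0.0798 in edgeR and 0.0136 in DESeq2). Pigment epithelium markers in these astrocytes did not overlap between the stages either, at 1.60 to 2.20 per 10000 UMIs in infant and 2.92 to 3.92 in senile retinas, and the median of the cone markers was 0.942 in infant and 2.43 in senile retinas, with overlap. RGC markers summed to 1.08 to 2.72 and 1.16 to 4.14, and vascular markers to 0.562 to 1.34 and 0.327 to 0.729. The part of these lists in the change of EBF1 was not tested. The adjusted p of EBF1 was between 0.00875 and 0.186 when 1 retina was left out, and of these fits it was under 0.05 only in the one without Mature 4 (log2 change 1.34, adjusted p = 0.00875). It was also under 0.05 with at least 30 nuclei (1.34, adjusted p = 0.0108) and without the low-count filter (1.18, adjusted p = 0.00369).

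MEIS2 in ACs was at 643, 655, 597, 484 and 483 CPM in infant retinas and at 987, 756, 747, 528 and 760 CPM in mature retinas, a log2 change of 0.45 (SE 0.11, adjusted p = 0.0748 in edgeR and 0.0178 in DESeq2), and 4 of the 5 mature retinas lay above all infant ones. Without Mature 4 the change was 0.53 (adjusted p = 0.0133), and without the low-count filter 0.49 (adjusted p = 0.000463). MEIS2 also differed between AC subtypes, with means of 192.3 CPM in glycinergic, 221.7 CPM in starburst and 1095 CPM in other GABAergic ACs. The part of the mix of AC subtypes in the stage change of MEIS2 was not tested. TFAP2A in BCs was at 6.31 to 9.17 CPM in infant retinas and at 6.35, 25.6, 14.1, 30.3 and 11.6 CPM in senile retinas (log2 change 1.14, SE 0.37, adjusted p = 0.241). Without Senile 1, which lay among the infant values, it was 1.49 (adjusted p = 0.0299), without Senile 4 it was 0.70 (adjusted p = 0.576), and without the low-count filter 1.06 (adjusted p = 0.0435). AC markers in these BCs summed to 1.16 to 1.43 per 10000 UMIs in infant and 1.16 to 2.85 in senile retinas, and their part was not tested. NR2E3 in rods was at 387, 394.5, 368, 913 and 1579 CPM in infant retinas and at 366, 528, 1016 and 761 CPM in senile retinas, and both stages overlapped (log2 change -0.68, SE 0.25, adjusted p = 0.208). This change was -0.94 without the low-count filter (adjusted p = 0.00556) and -0.25 with no covariate (adjusted p = 0.973). NRL in rods changed by -0.64 (SE 0.31, adjusted p = 0.424). Of 105 pairs of another regulator and a class, 1 passed between senile and infant retinas, ST18 in cones (-1.68, SE 0.42, adjusted p = 0.0497), and 0 in the other comparisons.

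The class in which a member was highest by mean CPM stayed the same in all 3 stages for 31 of the 40 members with at least 100 UMIs. For all features this share was not computed. The other 9 were RORB, TBX2, NEUROD6, SATB1, BHLHE22, NFIB, NFIX, ZEB2 and BARHL2. Between the Cell Ranger version groups, levels in the leading class did not overlap for 2 of 38 members with at least 100 UMIs there, NR2E3 in rods and NEUROD2 in ACs, beside 3.15% of 14812 such features. NEUROD2 was at 1.78 to 7.67 CPM in the 7 retinas labelled with version 5.0.1 and at 8.49 to 19.3 CPM in the 8 others. For 30 of the 38 members the means of both groups lay within 0.5 on the log2 scale, as they did for 61.7% of these features.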

How the data were processed

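Single-nucleus RNA was measured in 15 retinas, and the raw UMI counts per feature and barcode were deposited by the authors, who aligned reads to tree shrew genome TS_3.0 with Cell Ranger. Per the labels the versions were 5.0.1 (7 retinas) and 7.0.1 (8 retinas), while the file headers of the first group give 6.1.2. Whether introns were counted is not given in the sources used here. The kit is named differently in the labels and in the study's methods.

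Nuclei with over 200 and under 6000 genes and under 5% mitochondrial UMIs (3 such features) were kept, as in the study. Each nucleus was assigned to the class with the highest negative binomial likelihood over 76 of 90 listed markers, with a lead of at least 3. Each marker was read from its plain name or a numbered copy, whichever had the most UMIs. For GRIK1, CNGB1, ONECUT2 and NEFL this was a copy, and the same copy of GRIK1 set ON and OFF BCs apart. Nuclei with markers of several classes (16713) or of other cell types (243) were left out. In the gated Müller cells vascular markers still had medians of 4.10 to 5.31 per 10000 UMIs by stage, against at most 0.868 in other classes. Their part in the levels given for Müller cells was not tested. Leaving out 7940 doublets called from simulated ones (1495 of them gated) was an alternative. Gate thresholds were set after levels of some members under several gates had been seen, and members and lists were chosen with earlier results of these data known.

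Counts were summed per retina and class or subtype (at least 10 nuclei) and tested with edgeR 4.0.16 (quasi-likelihood test, trimmed mean of M-values, filterByExpr, Benjamini-Hochberg adjustment over all features tested, threshold 0.05) in R 4.3.3. Class and subtype fits had the retina as a block, and stage fits, 1 per class with all 3 stages, had the Cell Ranger version as a covariate. Scripts were checked on simulated data. Intervals of shares and count ratios are exact binomial (Clopper-Pearson) and cover counting error only. The labels do not say more of replicates than that they are separate samples, and p-values measure the spread between these. Between S-cones and L-cones the spread came from a trend over all features, not from each gene. Values are given in full for members called for a class, for members called in a stage comparison and for the 5 largest differences in each direction between subtypes. Other members, and the stage pairs called under an alternative setting, were named after their values were seen. Of 30 other regulators, up to 4 per comparison with the smallest adjusted p were named. Alternatives were DESeq2 1.42.0, upper-quartile scaling, no low-count filter, a stricter gate, called doublets left out, at least 30 nuclei, other covariates and leaving out each retina. In class fits without 1 retina or without the low-count filter, p was not adjusted again. A call there meant a raw p no larger than the largest that passed with all data for the same pair of classes. Class sums per retina ran from 18024 UMIs in microglia to 10778971 in ACs.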

Additional observations from a re-analysis of the deposited data

Results flagged for a closer look

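Of 81 groups of 4 or 5 retinas checked for class-leading factors, 5 held a retina far from the others by Dixon's criterion, and chance gives about 1 in 20. NEUROD1 in cones was at 396.5 CPM in Senile 4, and the other senile retinas were at 232.6 to 264.5. PAX2 in astrocytes was at 838.8 CPM in Senile 4, against 488 to 585.1 in the other senile retinas. ISL2 in cones was at 68.3 CPM in Mature 2, where the other mature retinas were at 21.4 to 24.7. EBF3 in RGCs was at 289.6 CPM in Infancy 5 (others 170.2 to 201.7) and at 169.8 CPM in Mature 4 (others 226.2 to 247.4). Infancy 5 held only 77 RGC nuclei and Mature 4 only 83.

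The matrices also list long non-coding features named after a member, which no comparison used, and 7 of them held more UMIs in gated nuclei than the member itself. Near OTX2 by name, LINC-OTX2-3, LINC-OTX2-4 and LINC-OTX2-5 had 6705, 5668 and 12346 UMIs. Rods had the highest means, 64.2 ± 14.9, 50.8 ± 39.9 and 136.1 ± 53.0 CPM, but held only 2.33%, 2.33% and 2.58% of the UMIs, and the next classes were at 55.3 (cones), 40.7 (cones) and 91.6 CPM (BCs), so that no leading class is given. LINC-RAX-1 had 13693 UMIs and was highest in Müller cells, at 198.8 ± 58.7 CPM against 80.9 CPM in astrocytes. LINC-POU4F2-1 had 97 UMIs, and its highest mean, 4.73 ± 15.9 CPM in astrocytes, came with a range of 0 to 61.97 CPM. LINC-POU4F2-2 had 110 UMIs, of which 0.909% were in rods, the class of its highest mean (1.09 ± 4.08 CPM), so that no leading class is given for this pair. LINC-POU4F3-1 had 3602 UMIs and was highest in RGCs, at 98.6 ± 30.1 CPM, where POU4F3 itself was at 0.448 ± 0.501 CPM. The position of these features relative to the genes was not analysed here.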

How the results depend on the processing

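None of the fitted differences counted below changed direction. ISL1 between glycinergic and GABAergic ACs could not be fitted with starburst ACs left out, and its means there have the opposite order (13.7 against 9.03 CPM). With nuclei weighted equally, ZEB2 was at 19.53 per 10000 UMIs in microglia and 18.51 in HCs, against its call for HCs. Of the single values of called members and of the stage pairs named, taken over all settings, 1386 stayed on their side of the threshold, 12 passed it and 14 lost it. A further 10 class calls appeared for members without one when all data were used: EOMES, NEUROD2 and PAX6 once each without a low-count filter, TBR1 under 3 settings and TBX2 under 4. The number of class-leading members (27) ranged from 25 to 28 when each retina was left out and from 26 to 31 under the other settings. Called members numbered 14 to 16 without each retina for ON and OFF BCs (16 with all), 19 to 23 for glycinergic and GABAergic ACs (21, also with starburst ACs left out) and 16 to 19 for starburst and other GABAergic ACs (18). Between S-cones and L-cones 4 were called, 2 with DESeq2 and 2 to 4 without each retina, with 2 left without Senile 1 or Senile 3. At least 30 nuclei left no retina for that comparison. For these class and subtype counts the shares of all features under the alternative settings are not given here. The counts therefore do not tell a change in the members from a general change in calls.

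Between senile and infant retinas 0 pairs were called, against 2 with DESeq2, 1 with at least 30 nuclei, 3 without a low-count filter (EBF1, TFAP2A and NR2E3) and 0 to 1 without each retina (1 without Mature 4 and 1 without Senile 1). Between mature and infant retinas 0 were called, against 1 with DESeq2, 1 without the filter and 0 to 1 without each retina (1 without Mature 4). Between senile and mature retinas it was 0, and 1 without the filter (NR2E3 in rods, adjusted p = 0.00321 in edgeR). The cause was not tested. Over all features, DESeq2 called 1629, 1624 and 284 in these comparisons against 1034, 724 and 5 in edgeR, and edgeR without the filter called 3859, 4041 and 1921. With at least 30 nuclei edgeR called 1059, 725 and 4. Between senile and infant retinas it called 1225 features without Mature 4 and 1018 without Senile 1, and between mature and infant retinas 827 without Mature 4. With the replicate block, with no covariate and in the retinas of version 7.0.1 alone, 0 pairs were called in each comparison (over all features 834, 515 and 0 with the block). Same-numbered retinas of different stages had a median correlation of deviations of 0.31 in BCs (12 of 15 pairs over 0.1, lowest -0.30, other pairs -0.15) and 0.40 in ACs (13 of 15, lowest -0.47, others -0.24). Not every pair was over 0.1, and 4 of 15 retinas in each class correlated best with their own number, so that numbers were not taken as pairs. Retinas numbered 1 and 2 share 1 Cell Ranger version and those numbered 4 and 5 the other. The leading class was the same in 3 stages for 31 members, or 29 with nuclei weighted equally. Depth limits rods, astrocytes and microglia most.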
